A study of Mus musculus with 13 samples.

Results

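Cells make cholesterol and fatty acids from acetyl-CoA along separate routes, and 35 genes of these routes were followed here in microglia, the resident macrophages of the brain, from newborn mice. The members are 21 genes of the sterol branch (19 enzymes, the branch-point enzyme gene Ggps1 and the sterol carrier gene Stard4), 9 genes of the fatty acid branch and 5 genes that control both. They were picked by gene symbol, matched through Ensembl gene ID, out of 55487 genes in the table. All 35 passed the filter on low counts.

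Microglia were taken from whole brain without meninges on postnatal day 4 (the series text gives days 3 to 5), with magnetic beads against CD11b, a surface integrin of myeloid cells. Pups born after maternal immune activation (MIA, 5 retained libraries) were set beside control pups (CON, 5 retained libraries). A further 3 libraries, MIA 6, MIA 7 and CON 6, carry titles that mark them as excluded, and are given here as values or in named alternatives. The sources used here do not give the agent used on the dams, nor strain, sex, litter or any sequencing batch. Nothing in the labels says whether the libraries of a group came from separate animals or pools, so the p-values measure the spread between these libraries, which may be technical in part.

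Sterol synthesis is switched on by SREBP proteins, transcription factors made as membrane precursors in the endoplasmic reticulum. When sterols run low, the escort protein SCAP carries SREBP to the Golgi, where proteases free its active part; when sterols are plentiful, INSIG proteins hold SCAP back. The protein of Srebf2 acts mainly on sterol genes and the main product of Srebf1 mainly on fatty acid genes. In the newborn brain nearly all cholesterol is made locally, since lipoproteins of the blood do not cross into brain tissue.

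In the MIA libraries 6 members of the sterol branch rose and none of the 35 members fell, while no gene of the fatty acid branch or of SREBP control passed the test (edgeR quasi-likelihood test, Benjamini-Hochberg threshold of 0.05 over 15511 genes). Over all genes tested, 5.75% were called higher and 4.58% lower, 10.3% in all. At an unadjusted p under 0.05 stood 3518 of all 15511 genes in either direction. Among the members, 9 sterol genes were higher at that level and 1 lower (Ebp). Of the fatty acid genes 2 were higher (Acss2 and Elovl6) and 1 lower (Acly), and of the control genes 1 was higher (Insig1) and 1 lower (Srebf1). DESeq2 called 1 sterol gene lower (Ebp), 1 fatty acid gene higher (Elovl6) and 1 control gene higher (Insig1), and limma-voom called none of these. Of 14588 genes with an adjusted p, DESeq2 called 1165 higher and 1009 lower. The risers were Stard4, Idi1, Fdps, Mvk, Cyp51 and Fdft1, between 1.29-fold and 2.10-fold higher. The median log2 fold change, MIA over CON, was 0.20 for the 21 sterol genes, 0.09 for the 9 fatty acid genes and 0.03 for the 5 control genes, against −0.01 for all genes tested. The fatty acid median rested on single libraries and on the filter: it was 0.20 without CON 1, beside a sterol median of 0.21, 0.02 without CON 2 and without MIA 1, and −0.07 with a stricter filter on low counts. The 5 MIA libraries lay above the 5 control libraries in Stard4, Idi1, Fdps and Cyp51, which 5.59% of all genes tested did, and no member lay wholly below, as 4.36% did. The members and lists were chosen with earlier results of these data known, so these counts describe the members and are no test of the list.

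**Figure D1:**
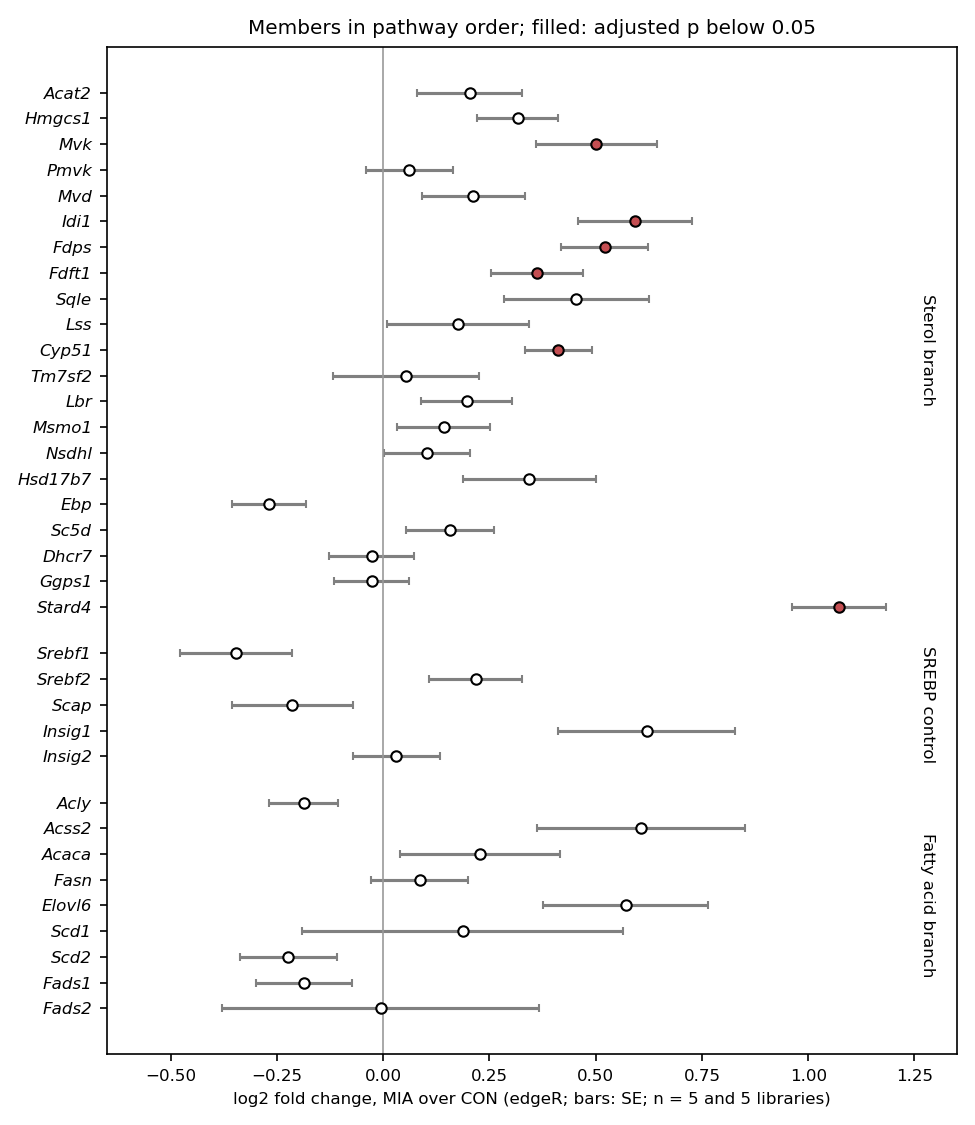
Log2 fold change of each of the 35 members, MIA over CON, in pathway order from top to bottom within each block (points: edgeR estimate; bars: SE; n = 5 libraries a group). The 6 filled points passed at an adjusted p below 0.05; they all lie in the sterol block, with Stard4 farthest right at 1.07.

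Microglial markers were abundant in every library, but libraries differed in RNA of other cells. The counts of markers called below stand beside 5.75% higher and 4.58% lower over all genes tested. The 12 microglial marker genes summed to 15740 to 20287 CPM in MIA and 23995 to 30670 CPM in CON, and 11 of them were lower in MIA. The excluded libraries ran the other way, with 23019 CPM in MIA 6, 23680 CPM in MIA 7 and 21032 CPM in CON 6. All 10 endothelial markers, genes of the blood vessel lining, were higher in MIA; they summed to 2559 to 4329 CPM in MIA and 895 to 1420.2 CPM in CON, and to 2171 CPM in MIA 6, 2374 CPM in MIA 7 and 2702 CPM in CON 6, with no marker at 0 in any library. Neuronal markers summed to 115 to 173 CPM in MIA and 63.3 to 91.9 CPM in CON, with 4 of 11 tested markers higher. Their sums in MIA 6 (84.6 CPM), MIA 7 (73.2 CPM) and CON 6 (80.4 CPM) all lay in the range of the retained controls. Slc17a7 was at 0 in 3 libraries. Of 7 tested neural progenitor genes 2 were higher, with sums of 101 to 138 CPM in MIA and 65.1 to 82.3 CPM in CON. The sums of the other marker lists overlapped between the groups. Of 10 mural and fibroblast genes 3 were higher (777 to 1105 CPM in MIA and 535 to 858 CPM in CON), of 12 oligodendrocyte lineage genes 1 (218 to 309 CPM in MIA and 207 to 282 CPM in CON), and of 10 astrocyte genes none (452 to 787 CPM in MIA and 302 to 951 CPM in CON). None passed in edgeR among choroid plexus and ependymal genes (759 to 12826 CPM in MIA and 34.3 to 15824 CPM in CON), border macrophage genes (854 to 2292 CPM in MIA and 1374 to 2194 CPM in CON) and genes of monocytes and neutrophils (35.7 to 64.6 CPM in MIA and 57.1 to 130.1 CPM in CON). None of the erythroid genes (1741 to 3049 CPM in MIA and 61.3 to 2194 CPM in CON) or of the genes induced by tissue dissociation (7026 to 8241 CPM in MIA and 2999 to 11347 CPM in CON) passed either, and CON 1 and CON 2 stood apart in both, at 61.3 and 80.1 CPM and at 3263 and 2999 CPM. In bulk RNA, fewer cells of a type and less RNA per cell cannot be told apart. Total counts ran from 25387000 to 35593500 a library, so that a count of 3 stood for 0.0873 to 0.117 CPM. They averaged 27563200 ± 1962080 in MIA and 31836800 ± 3307860 in CON (SD, n = 5 each; 2-sided exact permutation p = 0.0476).

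Stard4, which encodes a carrier of free sterol between membranes, differed most. It was at 24.9, 28.5, 26.95, 26.2 and 23.8 CPM (counts scaled to library size with TMM factors) in MIA 1 to MIA 5, against 11.1, 12.4, 12.98, 14.6 and 10.9 CPM in CON 1 to CON 5. Every MIA value exceeded the highest control value by a wide margin, and the rise was 2.10-fold (log2 fold change 1.07 ± 0.11, SE; edgeR adjusted p = 0.000127). In the excluded libraries Stard4 stood at 22.6 CPM in MIA 6, 19.2 CPM in MIA 7 and 23.6 CPM in CON 6. CON 6 therefore lay beside the MIA libraries in Stard4, as it did in the endothelial sum. The part of endothelial RNA in this difference was not tested. Stard4 passed in all 10 fits that left out 1 retained library (adjusted p at most 0.000727) and with all 13 libraries (log2 fold change 0.79, adjusted p = 0.025). With all 13 libraries except CON 1 and CON 2 it was at 0.66 and did not pass (adjusted p = 0.0807). No annotated exon of another gene overlaps Stard4, and its counts were whole numbers in every library.

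**Figure D2:**
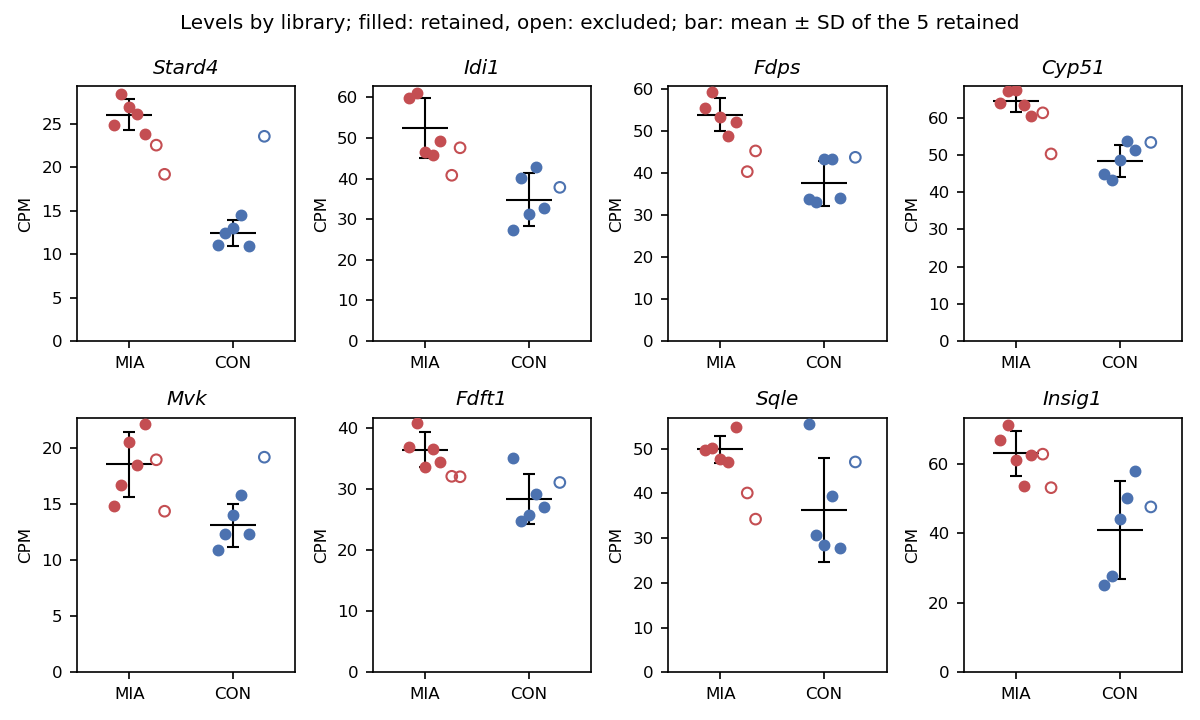
CPM by library for the 6 sterol genes that passed, with Sqle and Insig1, which did not (filled points: retained libraries; open points: excluded libraries; bars: mean ± SD of the 5 retained libraries). In Stard4, Idi1, Fdps and Cyp51 the filled MIA points clear the filled CON points; the open CON 6 point of Stard4, at 23.6 CPM, lies among the MIA points.

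The early steps join acetyl-CoA units into mevalonate and trim it to isoprene units. Idi1, the isomerase that readies isoprene units for joining, was at 59.9, 61.1, 46.5, 45.8 and 49.3 CPM in MIA 1 to MIA 5, against 27.2, 40.03, 31.3, 42.9 and 32.7 CPM in CON 1 to CON 5. The groups did not overlap, although MIA 4 at 45.8 CPM lay close to CON 4 at 42.9 CPM (log2 fold change 0.59 ± 0.13, SE; edgeR adjusted p = 0.013). MIA 6, MIA 7 and CON 6 were at 40.8, 47.6 and 37.8 CPM, with MIA 6 inside the control range. Mvk, which encodes mevalonate kinase, was at 14.9, 16.7, 20.5, 18.4 and 22.1 CPM in the MIA libraries and 10.9, 12.4, 14.03, 15.8 and 12.3 CPM in the control libraries. MIA 1 lay below CON 4, and the log2 fold change was 0.50 ± 0.14 (SE; edgeR adjusted p = 0.0408). MIA 6, MIA 7 and CON 6 were at 18.9, 14.3 and 19.2 CPM, with CON 6 the highest of the 3. Mvk passed in 2 of 10 fits with 1 library removed (without CON 4 and without MIA 1; adjusted p up to 0.126, without MIA 5) and not with all 13 libraries (adjusted p = 0.174).

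Hmgcs1, the synthase that makes HMG-CoA, was at 134, 153, 111, 141 and 130.01 CPM in the MIA libraries and 119.9, 103, 103, 118 and 94.2 CPM in the control libraries. MIA 3 lay within the control range and the gene just missed the threshold (log2 fold change 0.32 ± 0.10, SE; edgeR adjusted p = 0.0527). The excluded libraries had 129.7 CPM in MIA 6, 116 CPM in MIA 7 and 111 CPM in CON 6. It passed in 2 fits without 1 library, CON 1 (0.0235) or MIA 3 (0.0216), and in 6 alternatives in all. Its neighbours in the route did not pass: Acat2, the thiolase of the opening step, ranged over 37.01 to 54.2 CPM in MIA and 30.04 to 42.97 CPM in CON (log2 fold change 0.20 ± 0.12, SE), the kinase gene Pmvk over 15.8 to 18.6 CPM in MIA and 15.2 to 17.5 CPM in CON (0.06 ± 0.10) and the decarboxylase gene Mvd over 15.2 to 18.7 CPM in MIA and 11.8 to 16.2 CPM in CON (0.21 ± 0.12). In each of Acat2 and Mvd all 5 MIA libraries exceeded the control median, with overlapping groups.

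Isoprene units are then joined into farnesyl diphosphate, the last product shared by sterols and by prenylated proteins. Fdps, the farnesyl diphosphate synthase, was at 55.6, 59.4, 53.4, 48.8 and 52.2 CPM in the MIA libraries, against 33.8, 33.1, 43.4, 43.4 and 34.04 CPM in the control libraries. The groups did not overlap (log2 fold change 0.52 ± 0.10, SE; edgeR adjusted p = 0.00574). The excluded libraries, with 40.4 CPM in MIA 6, 45.3 CPM in MIA 7 and 43.8 CPM in CON 6, all lay below the lowest retained MIA library, and MIA 6 was below CON 6. Ggps1, which leads away from sterols by making the longer geranylgeranyl diphosphate, had 35.6 to 39.9 CPM in MIA and 33.8 to 44.4 CPM in CON and did not pass (log2 fold change −0.03 ± 0.09, SE).

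Squalene synthase, encoded by Fdft1, commits farnesyl diphosphate to sterols. Fdft1 was at 36.8, 40.8, 33.5, 36.5 and 34.4 CPM in the MIA libraries and 35.1, 24.8, 25.7, 29.2 and 26.9 CPM in the control libraries. CON 1 lay within the MIA range, and the gene passed narrowly (log2 fold change 0.36 ± 0.11, SE; edgeR adjusted p = 0.049). MIA 6, MIA 7 and CON 6 lay close together at 32.04, 31.96 and 31.03 CPM. The call held in 1 of 10 fits with 1 library removed, the one without CON 1 (adjusted p = 0.0064), and was lost in the other 9 (up to 0.12). Exons of Fdft1 share 774 bases with the protease gene Ctsb on the opposite strand, 18.3% of the annotated exon length of Fdft1. The library kit does not mark the strand, and Ctsb, with 204556 counts a library on average against 935 for Fdft1, was lower in MIA (log2 fold change −0.54 ± 0.12, SE; edgeR adjusted p = 0.0105). The counts of Fdft1 were also not whole numbers in any library, so its value is uncertain.

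Sqle, the squalene epoxidase and a rate-limiting step of the route, was at 49.6, 50.2, 47.6, 47.1 and 54.8 CPM in the MIA libraries and 55.4, 30.8, 28.5, 39.5 and 27.8 CPM in the control libraries. The highest of the 10 values was that of CON 1, and the other 4 controls lay below every MIA library. The excluded libraries ran the other way round in Sqle, with 40.1 CPM in MIA 6, 34.3 CPM in MIA 7 and 47.04 CPM in CON 6. The gene did not pass over the 10 retained libraries (log2 fold change 0.45 ± 0.17, SE; edgeR adjusted p = 0.121), and did without CON 1 (0.65, adjusted p = 0.00156). CON 1 also held the most choroid plexus and ependymal RNA (15824 CPM) and astrocyte RNA (951 CPM) of the 13 libraries, whose part in the Sqle value was not tested.

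Past squalene, the ring system is closed by lanosterol synthase and then cut back and rearranged to cholesterol. Cyp51, the lanosterol demethylase, was the one late enzyme that passed, at 63.9, 67.1, 67.4, 63.6 and 60.5 CPM in the MIA libraries against 44.97, 43.3, 48.7, 53.9 and 51.4 CPM in the control libraries. Its groups did not overlap (log2 fold change 0.41 ± 0.08, SE; edgeR adjusted p = 0.00496). In the excluded libraries Cyp51 was at 61.4 CPM in MIA 6, 50.3 CPM in MIA 7 and 53.4 CPM in CON 6. Idi1, Fdps and Cyp51 each passed in all 10 fits without 1 retained library and with all 13 libraries, and none of the 3 passed with all 13 except CON 1 and CON 2 (adjusted p = 0.0763, 0.145 and 0.108). Counts were not whole numbers in 12 of 13 libraries in Idi1 and in all 13 in Fdps, as in Acat2 and Lbr, so reads may have been shared with similar sequences and these values are uncertain to that extent. Fdps also shares exon with Gm43738, and Cyp51 shares 166 bases with Akap9 on the opposite strand.

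The remaining late genes did not pass. Lss, the lanosterol synthase, ranged over 9.49 to 15.05 CPM in MIA and 9.11 to 14.4 CPM in CON (log2 fold change 0.18 ± 0.17, SE). Of the genes for sterol reductases, Lbr, which also encodes a lamin receptor of the nuclear envelope, ranged over 111 to 150.5 CPM in MIA and 84.9 to 120.2 CPM in CON (log2 fold change 0.20 ± 0.11, SE), and Tm7sf2 over 8.12 to 13.7 CPM in MIA and 7.77 to 10.9 CPM in CON (0.05 ± 0.17). Exons of Tm7sf2 share 532 bases with Vps51 on the same strand, so its counts may hold reads of that gene. Msmo1, Nsdhl and Hsd17b7 encode enzymes that strip methyl groups from the ring. Msmo1 ranged over 47.1 to 61.2 CPM in MIA and 38.5 to 57.1 CPM in CON (log2 fold change 0.14 ± 0.11, SE). Nsdhl ranged over 22.3 to 26.7 CPM in MIA and 19.2 to 25.8 CPM in CON (0.10 ± 0.10), and Hsd17b7 over 7.41 to 11.5 CPM in MIA and 6.63 to 8.86 CPM in CON (0.34 ± 0.16). In none of these 3 genes were the groups apart. Sc5d, a desaturase, ranged over 28.1 to 33.2 CPM in MIA and 24.2 to 32.4 CPM in CON (log2 fold change 0.16 ± 0.10, SE). Dhcr7, the reductase that completes cholesterol, ranged over 43.5 to 57.3 CPM in MIA and 43.7 to 56.99 CPM in CON (−0.03 ± 0.10). Ebp, the sterol isomerase, leaned the other way, with 39.3 to 45.8 CPM in MIA and 45.1 to 59.9 CPM in CON (log2 fold change −0.27 ± 0.09, SE; edgeR adjusted p = 0.0708). All 5 MIA libraries lay below the control median in Ebp, and it passed as lower without CON 1 (adjusted p = 0.0189), with DESeq2 and with upper quartile scaling.

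Promoters are shown because genes of sterol synthesis are known targets of SREBP, which binds beside the factor NF-Y. RefSeq promoter sequences (GRCm38.p6) were matched by symbol for 28 of the 35 members; Fdps, Fdft1, Sqle, Stard4, Scd1, Scd2 and Fads1 had no entry. In the 250 bases before each start, both strands were searched for the NF-Y box CCAAT and for a sterol regulatory element written TCACNCCAC; matches were allowed to overlap, and a gene with several starts was counted if any start had the match. The NF-Y box stood before 16 of 17 sterol genes, 2 of 6 fatty acid genes and 4 of 5 control genes, against 37.5% of 27025 genes. 2 or more boxes stood before 11 of the 17 sterol genes, 1 of the 6 fatty acid genes and 1 of the 5 control genes, against 11.5% of all genes. The sterol regulatory element in these letters was found before Hmgcs1 and no other of the 28 members, and before 1.22% of all genes. The promoters of Mvk, Idi1 and Cyp51 are printed as those of genes that rose, Hmgcs1 for its sterol element and Fasn as the fatty acid synthase. Each runs 5′ to 3′ on the strand of its gene and ends at the base before the start, and capitals mark the NF-Y boxes (CCAAT, or ATTGG where the box lies on the other strand) and, in Hmgcs1, the sterol element.
Mvk (chr5:114444019-114444268, plus strand): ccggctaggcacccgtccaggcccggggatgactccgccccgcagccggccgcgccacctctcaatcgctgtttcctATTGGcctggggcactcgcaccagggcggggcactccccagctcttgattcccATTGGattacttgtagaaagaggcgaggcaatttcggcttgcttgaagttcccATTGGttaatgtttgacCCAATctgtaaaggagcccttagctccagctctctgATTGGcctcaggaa
Idi1 (chr13:8885356-8885605, plus strand): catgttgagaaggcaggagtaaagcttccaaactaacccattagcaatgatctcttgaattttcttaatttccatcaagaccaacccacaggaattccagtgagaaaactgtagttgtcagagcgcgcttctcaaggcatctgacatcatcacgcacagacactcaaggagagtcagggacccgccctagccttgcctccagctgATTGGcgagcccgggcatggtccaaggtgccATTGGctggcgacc
Cyp51 (chr5:4104698-4104947, minus strand): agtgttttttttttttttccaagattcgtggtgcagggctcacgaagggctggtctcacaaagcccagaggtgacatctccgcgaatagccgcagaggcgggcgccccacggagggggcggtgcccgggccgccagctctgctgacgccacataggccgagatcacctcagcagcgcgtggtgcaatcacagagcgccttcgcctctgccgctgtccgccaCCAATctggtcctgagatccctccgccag
Hmgcs1 (chr13:119690101-119690350, plus strand): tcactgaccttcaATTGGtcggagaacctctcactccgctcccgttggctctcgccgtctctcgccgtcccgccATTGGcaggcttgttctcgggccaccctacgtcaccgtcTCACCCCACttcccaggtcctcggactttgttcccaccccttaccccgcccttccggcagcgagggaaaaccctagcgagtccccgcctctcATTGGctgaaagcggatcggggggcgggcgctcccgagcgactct
Fasn (chr11:120824548-120824797, minus strand): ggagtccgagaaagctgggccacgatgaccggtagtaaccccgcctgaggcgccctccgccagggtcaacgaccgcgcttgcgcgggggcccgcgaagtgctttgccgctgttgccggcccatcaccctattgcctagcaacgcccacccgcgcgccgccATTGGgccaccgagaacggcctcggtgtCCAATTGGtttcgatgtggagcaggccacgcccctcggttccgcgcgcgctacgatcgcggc
Mvk carried 5 boxes, the most of these 5 promoters, and its 4 boxes on the reverse strand began 173, 120, 67 and 14 bases before the start, 53 bases apart each. Hmgcs1 carried 3 boxes, Idi1 2 and Cyp51 1. Fasn carried 3, of which 2 overlap as CCAATTGG. The RefSeq start of Hmgcs1, unlike the other 4 printed, is not matched by a transcript of the gene in GENCODE M21 over its first 20 bases, so the place of its sterol element relative to the start is uncertain. A match describes the letters and does not show that a factor binds there. Boxes also stood before sterol genes that did not pass as higher, among them Ebp, Dhcr7, Ggps1, Msmo1 and Lss. A link between the boxes and the rise was not tested.

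None of the 5 control genes passed. Insig1, itself a target of SREBP that feeds back on the pathway, was at 66.7, 70.95, 61.1, 53.7 and 62.5 CPM in the MIA libraries and 25.2, 27.7, 43.9, 50.03 and 57.9 CPM in the control libraries. CON 1 and CON 2 were lowest, while CON 5 lay within the MIA range (log2 fold change 0.62 ± 0.21, SE; edgeR adjusted p = 0.0868). The excluded libraries were at 62.7, 53.1 and 47.5 CPM in the order MIA 6, MIA 7, CON 6. Insig1 passed without CON 5 (adjusted p = 0.0291), with DESeq2 (0.0222), with the strict filter and with scaling to total counts, and was at 0.30 without CON 1 and CON 2 (adjusted p = 0.108). Insig2, its paralog, was at 41.98, 35.7, 29.7, 38.9 and 38.1 CPM in the MIA libraries and 39.4, 35.95, 35.2, 37.7 and 32.1 CPM in the control libraries. The groups overlapped (log2 fold change 0.03 ± 0.10, SE), and the excluded libraries had 38.8 CPM in MIA 6, 39.2 CPM in MIA 7 and 37.4 CPM in CON 6.

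Srebf1 was at 83.8, 86.7, 82.8, 73.7 and 80.5 CPM in the MIA libraries and 147, 101, 85.1, 88.3 and 96.5 CPM in the control libraries. CON 1 stood far above all others, and every MIA library lay below the control median (log2 fold change −0.35 ± 0.13, SE; edgeR adjusted p = 0.128). The excluded libraries had 93.3 CPM in MIA 6, 84.1 CPM in MIA 7 and 87.2 CPM in CON 6, without a difference by group. Srebf2 was at 50.8, 45.96, 52.8, 49.5 and 45.4 CPM in the MIA libraries and 51.7, 34.6, 41.9, 36.6 and 45.4 CPM in the control libraries, with every MIA library above the control median (log2 fold change 0.22 ± 0.11, SE; edgeR adjusted p = 0.264), and the excluded libraries at 38.7 CPM in MIA 6, 40.2 CPM in MIA 7 and 44.4 CPM in CON 6. The escort gene Scap was at 26.4, 29.5, 41.4, 34.9 and 42.2 CPM in the MIA libraries and 44.4, 36.97, 44.5, 32.6 and 43.8 CPM in the control libraries (log2 fold change −0.21 ± 0.14, SE). MIA 1 and MIA 2 were the lowest of the 10 in Scap, and the groups overlapped; the excluded libraries had 37.3 CPM in MIA 6, 38.1 CPM in MIA 7 and 42.3 CPM in CON 6.

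Set against each other within a library, where its scaling cancels, Srebf2 and Srebf1 separated the retained groups. RNA of other cells does not cancel in this way, and its part was not tested. The difference Srebf2 minus Srebf1 in log2 CPM was −0.72, −0.92, −0.65, −0.57 and −0.83 in MIA 1 to MIA 5, against −1.51, −1.54, −1.02, −1.27 and −1.09 in CON 1 to CON 5. All 5 MIA values were above all 5 control values, by 0.55 on average (2-sided exact permutation p = 0.00794, the smallest that 5 against 5 allow; adjusted p = 0.0476 over 6 gene pairs). In the excluded libraries the order was the reverse, with −1.27 in MIA 6, −1.06 in MIA 7 and −0.97 in CON 6, and over all 13 libraries the difference was 0.37 (exact permutation adjusted p = 0.0804). Insig1 minus Insig2 was 0.78 ± 0.24 in MIA and 0.11 ± 0.61 in CON (SD, n = 5 each; exact permutation adjusted p = 0.167, and 0.0238 without CON 5). Without CON 1 and CON 2, the difference between the groups in Insig1 minus Insig2 was 0.25, against 0.66 over the 10 retained libraries (exact permutation adjusted p = 0.279).

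**Figure D3:**
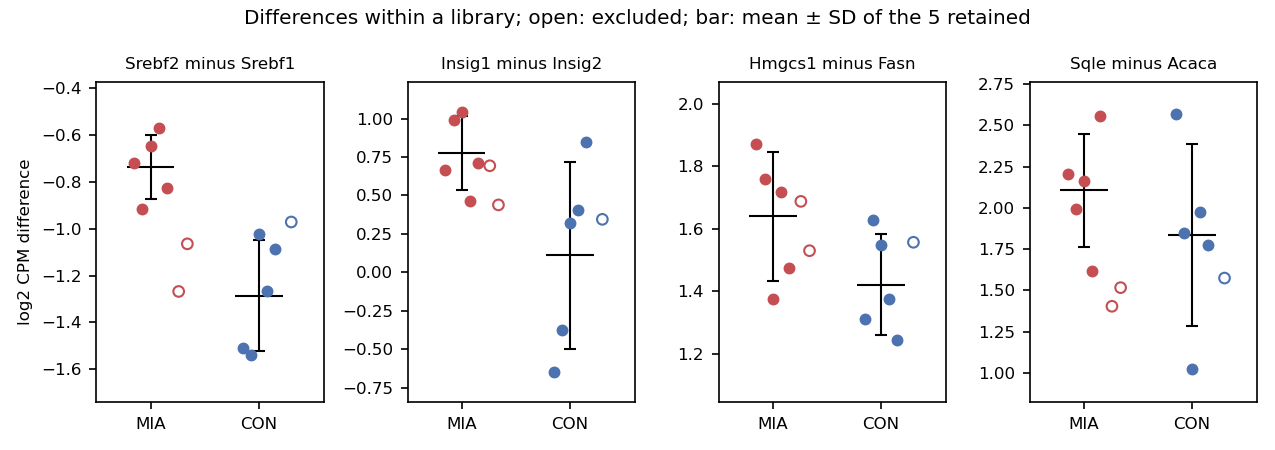
Log2 CPM difference between genes of a library for 4 of the 6 pairs (filled points: retained libraries; open points: excluded libraries; bars: mean ± SD of the 5 retained libraries; each panel has its own axis). Srebf2 minus Srebf1 separates the filled MIA and CON points, while the open points of MIA 6 and MIA 7 lie at −1.27 and −1.06, within the CON range.

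Fatty acid synthesis starts from cytosolic acetyl-CoA, which Acly makes from citrate and Acss2 from acetate. Acly was at 201, 220.5, 228, 193 and 181 CPM in the MIA libraries and 241, 259, 224, 220.4 and 220.04 CPM in the control libraries. Of the MIA values 4 lay below the control median, without a call (log2 fold change −0.19 ± 0.08, SE; edgeR adjusted p = 0.185). In the excluded libraries Acly was at 216 CPM in MIA 6, 231 CPM in MIA 7 and 232 CPM in CON 6. Acss2 was low throughout, at 6.28 to 12.8 CPM in MIA and 4.60 to 8.34 CPM in CON, and did not pass (log2 fold change 0.61 ± 0.24, SE; edgeR adjusted p = 0.152). CON 1 was the highest control in Acss2, and without it the gene passed as higher (adjusted p = 0.0357).

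Acaca, the acetyl-CoA carboxylase that commits carbon to fatty acids, was at 10.7, 12.6, 10.6, 15.3 and 9.27 CPM in the MIA libraries and 9.30, 8.51, 14.03, 9.98 and 8.07 CPM in the control libraries. Fasn, the fatty acid synthase, was at 36.7, 45.1, 42.6, 42.9 and 46.8 CPM in the MIA libraries and 48.2, 33.3, 35.04, 45.3 and 39.7 CPM in the control libraries. Both pairs of groups overlapped, with log2 fold changes of 0.23 ± 0.19 for Acaca and 0.09 ± 0.11 for Fasn (SE). Acaca had 15.1 CPM in MIA 6, 11.9 CPM in MIA 7 and 15.8 CPM in CON 6. Fasn had 40.2 CPM in MIA 6, 40.2 CPM in MIA 7 and 37.6 CPM in CON 6. Elovl6, which lengthens the product of the synthase, had 8.01 to 12.7 CPM in MIA and 4.94 to 8.61 CPM in CON. All 5 MIA libraries exceeded the control median in Elovl6 (log2 fold change 0.57 ± 0.19, SE; edgeR adjusted p = 0.085), and it passed without CON 1 (0.0285) and with DESeq2 (0.0458).

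Desaturases set double bonds into finished fatty acids. Scd2, the main such gene of brain, was at 418, 483, 466, 399.8 and 432 CPM in the MIA libraries and 639.6, 576, 414, 497 and 440.2 CPM in the control libraries. Every MIA library lay below the control median, within the control range in all but MIA 4 (log2 fold change −0.22 ± 0.11, SE; edgeR adjusted p = 0.276). In MIA 6, MIA 7 and CON 6 it was at 515, 517 and 479 CPM, higher in both excluded MIA libraries than in any retained one. Its paralog Scd1 was at 8.20, 6.92, 3.43, 1.91 and 7.01 CPM in the MIA libraries and 7.58, 3.71, 4.74, 5.22 and 2.90 CPM in the control libraries, spread too widely to tell the groups apart at this depth (log2 fold change 0.19 ± 0.38, SE), with 5.92 CPM in MIA 6, 3.03 CPM in MIA 7 and 5.93 CPM in CON 6. Counts of both were not whole numbers in 11 of 13 libraries, so reads may have been shared between these similar genes.

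Fads1 and Fads2 make polyunsaturated fatty acids. Fads1 was at 173, 208, 159, 175 and 179.9 CPM in the MIA libraries and 248, 232, 178, 167 and 195 CPM in the control libraries (log2 fold change −0.19 ± 0.11, SE; edgeR adjusted p = 0.366). The groups overlapped, and MIA 6, MIA 7 and CON 6 were at 177, 179.5 and 179 CPM. Fads2 was at 70.1, 84.5, 53.7, 87.6 and 82.4 CPM in the MIA libraries and 164, 67.7, 52.8, 58.7 and 37.2 CPM in the control libraries (log2 fold change −0.01 ± 0.37, SE). The highest value of Fads2 was that of CON 1, and 4 of the 5 MIA libraries exceeded the control median. MIA 6, MIA 7 and CON 6 were at 73.9, 64.6 and 63.6 CPM. Without CON 1 the log2 fold change of Fads2 was 0.48 (edgeR adjusted p = 0.106).

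The branches differed in how they spread among the control libraries. Summed over its 21 genes, the sterol branch held 859 to 969 CPM in MIA and 735 to 818 CPM in CON, without overlap, and 830.05 CPM in MIA 6, 806 CPM in MIA 7 and 816 CPM in CON 6. The 9 fatty acid genes summed to 934 to 1082 CPM in MIA and 934 to 1375 CPM in CON, with CON 1 highest at 1375 CPM and CON 2 next at 1189.6 CPM. As a mean log2 CPM over the genes of a branch, the sterol branch was at 5.08 ± 0.06 in MIA and 4.81 ± 0.05 in CON (SD, n = 5 each), a difference of 0.27. The fatty acid branch was at 5.30 ± 0.15 in MIA and 5.17 ± 0.26 in CON (SD, n = 5 each), a difference of 0.13 that was smaller than either SD. Between single genes of the branches, Hmgcs1 minus Fasn was 1.64 ± 0.21 in MIA and 1.42 ± 0.16 in CON (SD, n = 5 each; exact permutation adjusted p = 0.222). Sqle minus Acaca was 2.11 ± 0.34 in MIA and 1.84 ± 0.55 in CON (SD, n = 5 each; exact permutation adjusted p = 0.467). A larger response of the sterol branch than of the fatty acid branch was thus not shown by these pairs. The paralog pairs Scd1 minus Scd2 and Fads1 minus Fads2 did not separate the groups either (exact permutation adjusted p = 0.5 and 0.467).

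**Figure D4:**
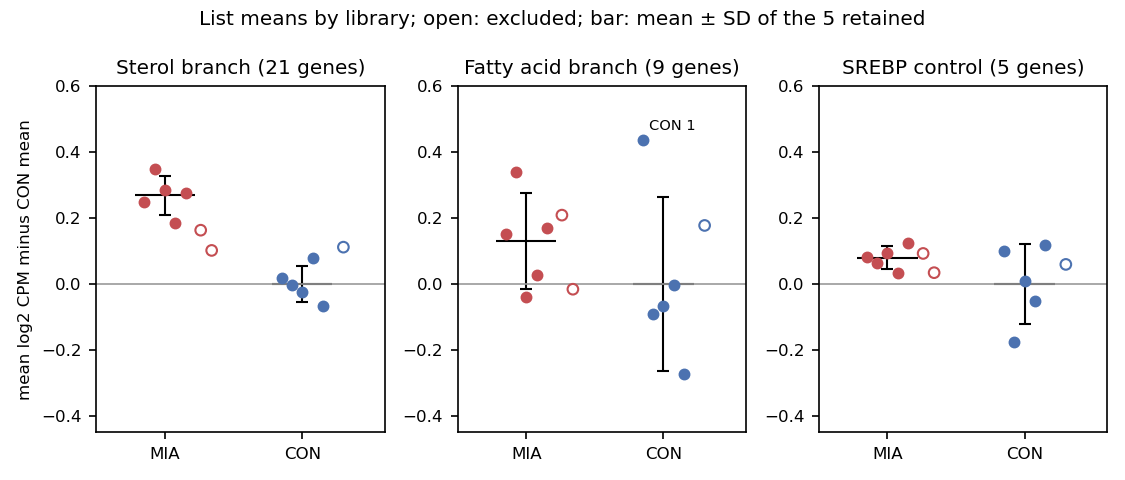
Mean log2 CPM of each branch by library, minus the mean of the 5 retained controls (filled points: retained libraries; open points: excluded libraries; bars: mean ± SD of the 5 retained libraries). In the sterol branch the 5 filled MIA points lie above the 5 filled CON points; in the fatty acid branch the groups overlap and CON 1 is highest.

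The endothelial sum and the sterol branch both separated the retained groups. CON 6, whose endothelial sum of 2702 CPM lay inside the range of the retained MIA libraries, had a sterol sum of 816 CPM, inside the range of the retained controls. As a mean log2 CPM the sterol branch of CON 6 was at 4.92, above every retained control (4.74 to 4.89). It lay below every retained MIA library (4.99 to 5.16). MIA 6 and MIA 7, at 4.97 and 4.91, lay between the retained groups as well. The endothelial mean log2 CPM was 7.1517 in CON 6, 7.0018 in MIA 6 and 7.1451 in MIA 7. It was 5.91 to 6.37 in the retained controls and 7.1525 to 7.87 in the retained MIA libraries. On this scale each excluded library thus lay between the retained groups in both lists. Within MIA, MIA 2 had the lowest endothelial sum (2559 CPM) and the highest sterol sum (969 CPM). MIA 3, with the highest endothelial sum (4329 CPM), was the highest retained MIA library in Cyp51 and not in the other 5 genes that passed; in Stard4 it had 26.95 CPM, against 28.5 CPM in MIA 2. Neuronal markers were highest in MIA 2, at 173 CPM. Among the retained libraries the group and these markers cannot be told apart.

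**Figure D5:**
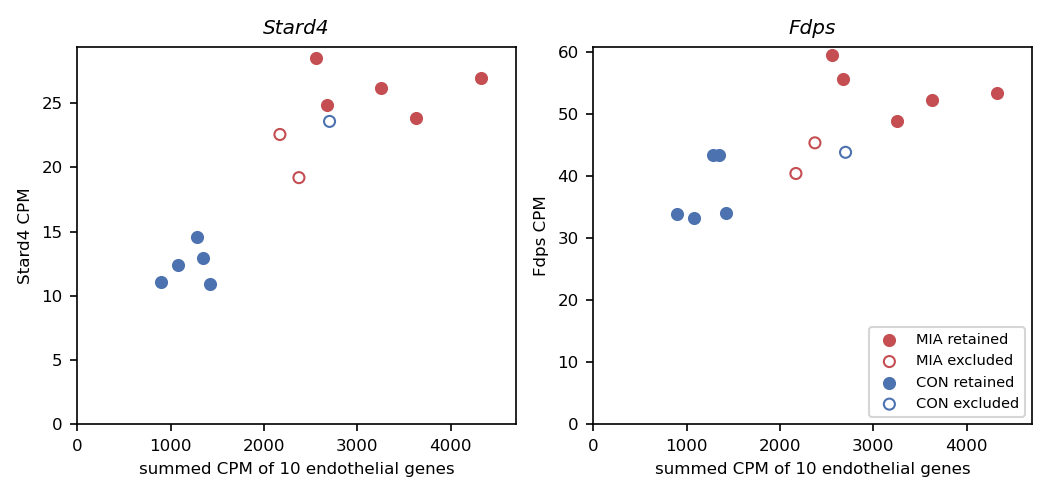
CPM of Stard4 (left) and Fdps (right) against the summed CPM of 10 endothelial marker genes in each of the 13 libraries. The retained MIA and CON libraries form separate clusters on both axes, and CON 6, with an endothelial sum of 2702 CPM, lies near the MIA libraries in Stard4.

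Levels of different genes can be compared per length, here as CPM per kilobase of annotated exon. Scd2 led the 35 members at 80.5 ± 6.25 in MIA and 93.9 ± 17.2 in CON (CPM per kilobase; SD, n = 5 each), followed by Acly at 38.8 ± 3.71 in MIA and 44.1 ± 3.23 in CON and Fads1 at 37.2 ± 3.69 in MIA and 42.4 ± 7.26 in CON. Acly and Fads1 did not differ beyond their spread. The highest sterol gene was Hmgcs1 at 29.1 ± 3.40 in MIA and 23.4 ± 2.38 in CON, and Fdps was at 12.8 ± 0.937 in MIA and 8.92 ± 1.27 in CON. Stard4 was among the scarcer members, at 4.67 ± 0.325 in MIA and 2.22 ± 0.268 in CON. Acaca and Acss2 were the lowest in both groups, with 0.685 ± 0.138 in MIA and 0.584 ± 0.139 in CON for Acaca, and 0.848 ± 0.270 in MIA and 0.557 ± 0.153 in CON for Acss2 (CPM per kilobase). Exon lengths come from GENCODE M21, which may differ from the release used for counting.

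Of 14 tested further genes of fatty acid metabolism none rose and 2 fell, beside 5.75% higher and 4.58% lower over all genes tested. The 2 that fell were Elovl1, an elongase of very long chains, with 96.8 ± 9.18 CPM in MIA and 122 ± 14.5 CPM in CON, and Mid1ip1, which encodes an activator of acetyl-CoA carboxylase, with 109 ± 7.77 CPM in MIA and 134 ± 6.67 CPM in CON (SD, n = 5 each; log2 fold changes −0.33 ± 0.09 and −0.29 ± 0.07, SE; edgeR adjusted p = 0.037 and 0.0153). The list as a whole did not lean lower: 8 genes had a positive log2 fold change and 6 a negative one, with a median of 0.06. At an unadjusted p under 0.05, 2 were higher (Acacb and Acsl3) and 2 lower, beside 3518 of all 15511 genes in either direction. In Acacb every retained MIA library lay above every retained control (log2 fold change 1.10 ± 0.42, SE, edgeR adjusted p = 0.132).

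Genes that handle sterol and lipoproteins outside synthesis, among them exporters and storage genes, gave more falls. Of 13 such genes 5 fell and none rose, beside 4.58% lower over all genes tested. Their median log2 fold change was −0.40, beside −0.54 for the 12 microglial markers. They summed to 7782 to 8952 CPM in MIA and 11497 to 16192 CPM in CON. In the excluded libraries the sum was 12346 CPM in MIA 6, 11356 CPM in MIA 7 and 11051 CPM in CON 6, so the fall was not seen there. Ch25h leaned the other way without passing (log2 fold change 1.45 ± 0.48, SE, edgeR adjusted p = 0.078), with every retained MIA library above every retained control. Abcg1, a sterol exporter, had 279.6 ± 26.9 CPM in MIA and 374 ± 65.4 CPM in CON, and Soat1, which esterifies cholesterol for storage, 159.7 ± 25.7 CPM in MIA and 211 ± 16.1 CPM in CON (SD, n = 5 each; log2 fold changes −0.42 ± 0.11 and −0.40 ± 0.10, SE; edgeR adjusted p = 0.0296 and 0.0258). The lipid droplet gene Plin2 fell by 0.40 on the log2 scale and the lipoprotein genes Apoe and Apoc1 by 0.78 and 0.95 (edgeR adjusted p = 0.00597, 0.000481 and 0.00284). In all 5 of the genes that fell every retained MIA library lay below every retained control library, as in 4.36% of all genes tested. The part of the lower microglial share in these falls was not tested.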

How the data were processed

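For 13 libraries the authors deposited a table of expected counts, that is, estimated reads of each gene, unscaled. The submitters' processing notes name RSEM, STAR and DESeq2 without roles or versions; the sources used here give neither build nor annotation release. Per the labels' protocols, libraries were made from poly(A)-primed cDNA (modified Smart-Seq2) and tagmented, which does not mark the strand. Columns were mapped by the descriptions. A fractional part was present in 20.6% of nonzero values, and rounding to whole counts moved a value by at most 0.5. Symbols were matched by Ensembl ID (55141 of 55487 without the version).

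The main test was that of edgeR 4.0.16 under R 4.3.3 (low counts dropped by filterByExpr, TMM factors, robust quasi-likelihood fit with group as the only term; Benjamini-Hochberg over 15511 genes). CPM values are TMM-scaled; excluded libraries were scaled to the same library as the retained ones. The SE is the log2 fold change divided by the square root of F. Log2 CPM of libraries used a prior count of 2. Gene pairs were compared by 2-sided exact permutation tests, adjusted over 6 pairs. The pipeline was tested on simulated counts, with changed genes drawn from all those past the filter. It recovered 1 of 49 genes changed 1.25-fold, 15 of 49 changed 1.5-fold and 24 of 48 changed 2-fold. Of its 84 calls 7 were false. The data gave 1602 calls, so the adjusted threshold was stricter in the simulation. The shares recovered therefore do not carry over to the members. A gene that did not pass may still have changed by an amount that its SE allows. No libraries were near-duplicates: counts of any pair differed by at least 14.8 times the sampling variance. Alternatives included limma-voom (limma 3.58.1), DESeq2 1.42.0, other scalings and filters, and other sets of libraries; the strict filter asked for 10 CPM in 5 libraries. Members, lists and tests were chosen with earlier results of these data known. Named were all 35 members, with each library for those past the threshold and for 14 regulators and key enzymes, and, in other lists, genes past the threshold. Ctsb, Vps51, Slc17a7, Ch25h, Acacb, Acsl3 and the high or low libraries singled out were picked after their values were seen. Some further genes of sterol supply are not reported here. Intervals of counts were not used; a count of 3 is the limit that a count of 0 allows and covers counting error only.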

Additional observations from a re-analysis of the deposited data

Results flagged for a closer look

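In 4 of the 70 groups of 5 libraries (35 members in MIA and in CON) 1 library stood apart from the other 4 by Dixon's criterion, which chance alone meets in about 1 of 20 groups. Of the 4, 3 were CON 1, the control highest in choroid plexus, ependymal and astrocyte markers: Srebf1 at 147 CPM against 85.1 to 101 CPM in the other controls, Acss2 at 8.34 CPM against 4.60 to 5.65 CPM, and Fads2 at 164 CPM against 37.2 to 67.7 CPM. The part of those markers in these values was not tested. The fourth was Tm7sf2 in MIA 5, at 13.7 CPM against 8.12 to 9.30 CPM in the other MIA libraries; its exons share 532 bases with Vps51 on the same strand.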

How the results depend on the processing

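The main count of 1602 genes was 659 with all 13 libraries, 1047 with the retained libraries plus CON 6 (an alternative added after the data were seen) and 90 with all 13 except CON 1 and CON 2; fits without 1 retained library gave 1037 (without MIA 5) to 2263, and 1057 without MIA 4. Scaling to total counts called 1036 genes higher and 496 lower, against 892 and 710. The 6 sterol genes called higher were 4 to 7 without 1 library and 0 with all 13 except CON 1 and CON 2; their branch median was 0.26 without CON 1 and CON 2. A sterol gene called lower, Ebp, appeared with upper quartile scaling (1), DESeq2 (1), the retained libraries plus MIA 6 and MIA 7 (1) and without CON 1 (0 to 1 in fits without 1 library). The fatty acid branch had 1 gene called higher with DESeq2 and 0 to 2 without 1 library. Of the control genes 1, Insig1, was called with total counts, the strict filter and DESeq2, and 0 to 1 without 1 library. Srebf2 minus Srebf1 was 0.37 with all 13 libraries and 0.39 without CON 1 and CON 2 (exact permutation adjusted p = 0.0804 and 0.107). With both changes it was 0.23 (exact permutation adjusted p = 0.236). Without 1 library it was 0.49 to 0.62 (0.0952 without any 1 MIA library). Insig1 minus Insig2, 0.66 over the retained libraries, was 0.47 to 0.85 without 1 library and 0.25 without CON 1 and CON 2. It was 0.57 with all 13 libraries and 0.24 with all 13 except CON 1 and CON 2. The fatty acid median was 0.02 to 0.20 and the control median −0.02 to 0.10 without 1 library. No member that was called changed sign in any alternative. The cause was not tested.

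The labels give same-numbered libraries nothing in common but the number. Their deviations from the group mean correlated at 0.058 to 0.302 over 5 pairs, with 2 of 5 highest for their own number. Replicate 3 was at 0.302, against at most 0.111 with other numbers. Whether same-numbered libraries share a batch or litter cannot be told from these values. With the replicate block 1524 genes were called, the sterol branch had 6 higher, and Srebf2 minus Srebf1, at 0.55, could not pass an exact sign-flip permutation test over 5 pairs (smallest p = 0.0625; adjusted p = 0.375). The widest SEs of log2 fold changes were those of Scd1 (0.38) and Fads2 (0.37).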
